A study of Sus scrofa with 6 samples.

Results

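Probes for potassium, sodium, calcium and chloride channels, with their accessory subunits, were examined on single-colour Agilent arrays of 2 pig muscles, the longissimus dorsi muscle (LDM) and the psoas major muscle (PMM). A probe was taken as a member when its gene name began with KCN, CACN, CLCN or SCN and a digit, or when its description named a potassium, sodium, calcium or chloride channel. The rule used names alone and no measured value. It found 64 probes under 55 gene labels among the 43603 probes of the array, of which 29 matched by gene name and 35 by description alone. By ion class these were 39 potassium probes (33 labels), 5 sodium probes (5), 7 calcium probes (7) and 10 chloride probes (8). The other 3 probes, for KCTD2 and KCTD20, matched because their descriptions name a potassium channel tetramerisation domain. Proteins of that family share a domain with voltage-gated potassium channels but form no pore, so they were counted apart. Each muscle was measured on 3 arrays, from female Landrace pigs of 210 days of age that received no experimental treatment. All animals had the same diet from weaning and were fasted with access to water before slaughter. The study set LDM as a glycolytic and PMM as an oxidative muscle, and took both from 3 pigs, but no source used here ties the replicate numbers to animals.

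In skeletal muscle, voltage-gated sodium channels carry the upstroke of the action potential, and potassium and chloride channels return the membrane to rest. The calcium channel of the transverse tubule acts mainly as a voltage sensor that opens the release channel of the sarcoplasmic reticulum. Many channels consist of pore-forming alpha subunits and accessory beta, gamma or alpha2delta subunits that set their gating and their delivery to the membrane. The main pore genes of adult fibres, SCN4A, CLCN1 and CACNA1S, were not matched to any member, so the members are mostly other channels and accessory subunits.

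The array carried probes of 60 bases, and 8 member genes were covered by more than 1 probe. The longest unbroken runs that member probes share were read from the sequences in the deposited files, and matches outside the run were not counted. Among the 2016 pairs of member probes, 2 pairs shared an unbroken run of at least 15 bases, and the median longest run was 6 bases. The pairs below hold long runs between close relatives of the KCNA (Shaker) or CLCN family. Capitals mark the run shared with the named relative, and positions count from 1 at the 5′ end of the probe. The array design gave no mapped genome position for any of them. The first is KCNA2, whose run of 17 bases at positions 44 to 60 recurs at positions 5 to 21 of the KCNA6 probe:
KCNA2: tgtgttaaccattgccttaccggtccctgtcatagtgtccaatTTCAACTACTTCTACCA
KCNA6 and the second probe of KCNA7 shared 18 bases:
KCNA6: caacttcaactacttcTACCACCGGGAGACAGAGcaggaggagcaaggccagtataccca
KCNA7: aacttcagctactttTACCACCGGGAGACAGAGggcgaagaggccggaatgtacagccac
The first CLCN4 probe shared 12 bases with CLCN5:
CLCN4: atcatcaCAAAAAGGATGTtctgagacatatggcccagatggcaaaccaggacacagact
CLCN5: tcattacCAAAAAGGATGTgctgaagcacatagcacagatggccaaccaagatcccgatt
Some relatives with a shared run differed in detection and others did not. KCNA2 was well above background on all 6 arrays and KCNA6 on 1, and CLCN4 was on all 6 and CLCN5 on none. The second KCNA5 probe and KCNA10, not shown, shared 14 bases and were both on all 6.

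Levels are given as log2 of the processed intensity over the 75th percentile of the array, and differences as PMM minus LDM on that scale. A level therefore says how a probe compares with its own array, and levels of different probes do not give relative amounts of RNA. Summed levels below add unlogged levels over the probes of a list, so the brightest probe weighs most. That probe was DCN for the fibroblast and FABP4 for the adipocyte markers, and FABP4 differed by 0.11 ± 0.69 (SE). The 75th percentile was between 583 and 872 intensity units, no spot was saturated, and between 58.4% and 72.3% of all probes were well above background per array. The labels on RNA extraction speak of adipose tissue, although the samples are labelled as muscle. All 11 myofibre marker genes had a probe, and all 11 were well above background on all 6 arrays. The 4 measured fibroblast markers were lower in PMM in the mean, with a summed level of 98.6 to 222 times the 75th percentile in LDM and 72.4 to 155 in PMM. The 2 measured smooth muscle and pericyte markers, CNN1 and RGS5, summed to 37.4 to 38.96 in LDM and 48.0 to 63.0 in PMM. The sums did not overlap between the muscles, but the values of each gene did. All 6 adipocyte markers had a probe, 5 of them lower in PMM with a median of −0.46, and summed to 84.8 to 258 in LDM and 76.4 to 262 in PMM. All 5 measured endothelial markers were higher in PMM in the mean, with a median of 0.29, but PECAM1 and VWF were lower in pair 3. Their summed level overlapped, at 53.5 to 164 in LDM and 92.2 to 160 in PMM. Of 7 nerve and Schwann cell markers, 2 were matched to a probe by gene symbol. Their summed level was 0.110 to 0.173 in LDM and 0.0975 to 0.205 in PMM. In whole muscle, fewer cells of a type and less RNA per cell cannot be told apart, and the part of these markers in the differences below was not tested.

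The question of the rule was first which channels could be detected. Well above background on all 3 LDM arrays were 39 of the 64 channel probes, and on all 3 PMM arrays 38, the same 38 in both muscles and KCNB2 in addition in LDM. No member probe was well above background on every array of 1 muscle and on none of the other. The LDM arrays detected 45, 43 and 41 members and the PMM arrays 42, 44 and 41, or 43 ± 2 against 42.3 ± 1.53 (SD, n = 3 arrays each; exact permutation test, two-sided, p = 0.8, with 0.1 the smallest p possible). Members were detected about as often as probes at large, of which 57.6% passed on all LDM arrays and 56.0% on all PMM arrays, against 60.9% and 59.4% of the members.

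The counts detected in each ion class were the same in both muscles, but for 1 potassium probe. Of 39 potassium probes, 22 were well above background on all LDM arrays and 21 on all PMM arrays. Chloride probes numbered 8 of 10 in both muscles, calcium probes 4 of 7, sodium probes 2 of 5 and KCTD probes 3 of 3. On no array at all were 9 potassium, 2 sodium, 2 calcium and 2 chloride probes, or 15 in total (23.4% of the members, against 23.6% of all probes). By the weaker flag of the scanner software, which marks a signal as positive and significant, 3 members (4.69%) and 8.33% of all probes were on no array, so the list that follows holds for the stricter flag. Among these were KCND2 and KCND3, alpha subunits of the fast inactivating A-type current, KCNQ1, best known from heart and epithelia, and the epithelial sodium channel subunits SCNN1A and SCNN1G. The tandem pore channels KCNK10, KCNK15 and KCNK16, the calcium-activated KCNN4, the inward rectifier KCNJ13, the accessory subunit KCNE2, CACNA1D, TMEM37, CLCN5 and an epithelial chloride channel were likewise on none by the stricter flag.

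**Figure D1:**
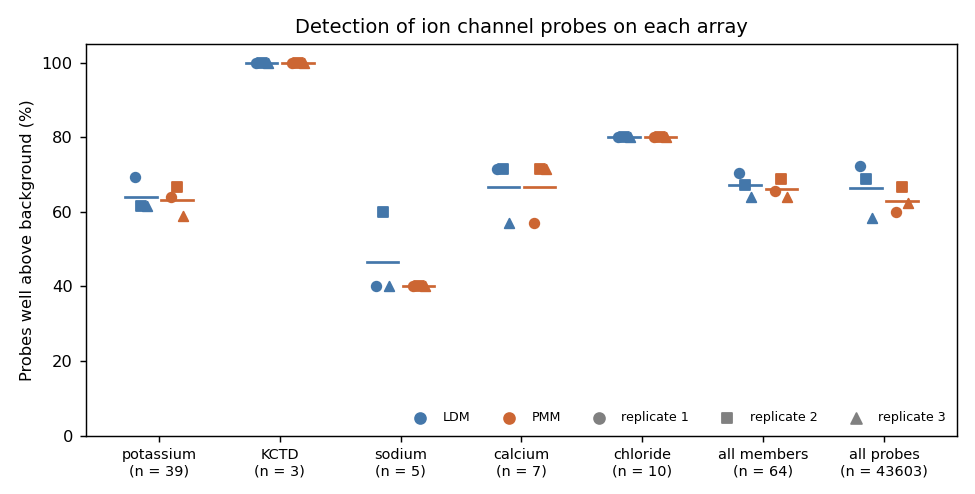
Percentage of probes well above background on each of the 6 arrays, by ion class, for all 64 members and for all 43603 probes. Points are arrays, with the shape giving the replicate number, and lines are means of 3 arrays. LDM and PMM points lie at similar heights within each class, chloride probes at 80% on every array.

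No channel probe passed the test between the muscles. PMM and LDM were compared with limma, without a block for the replicate number. The fit took the 25824 probes detected on all arrays of at least 1 muscle, 39 of them members (34 gene labels). Of the members, 0 passed an adjusted p of 0.05, as did 0 of all probes (0%), with an adjusted p of 1 for every member. At a limma unadjusted p under 0.05 there were 2 of the 39 members and 691 of the 25824 probes. With the replicate number as a block these were 7 members and 2892 probes. The member differences ranged from −0.82 for KCNH3 to 0.85 for KCNAB1, so none reached a doubling. Their median was −0.056, against −0.029 over all probes tested, with 19 members above 0 and 20 below. The 95% intervals had a median half-width of 0.90 log2 units, and 14 of the 39 lay wholly between −1 and 1, so for the other 25 the interval reached a 2-fold difference. With the replicate number as a block the median half-width was 0.50, and 30 of the 39 lay between −1 and 1. All 3 PMM values were on 1 side of all 3 LDM values for 2 of the 39 members, or 5.13% against 5.95% of all probes. PMM was above LDM in all 3 pairs of the same replicate number for 7 members (17.9%, against 17.5% of probes) and below it in all 3 for 8 (20.5%, against 18.6%). These shares of the members were near those of the probes at large.

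With the replicate number as a block in limma, 0 members and 16 of all probes (0.062%) passed over all probes. The fits of 1 probe per gene kept only probes with a gene symbol, and 38450 of the 43603 probes had none. In these fits 0 of 24 members passed without the block (0% of 2893 genes). With the block, 2 of 24 passed, KCNAB1 (adjusted p = 0.0181) and KCNA2 (adjusted p = 0.0344), against 6.33% of genes. When members were also entered under the names read from their descriptions, a choice made after seeing the data, 3 of 34 passed with the block. These were KCNAB1 (limma adjusted p = 0.018), KCNA2 (0.0343) and KCNAB3 (0.0377), against 6.34% of 2903 genes. The 4 further fits of this last kind, also chosen after seeing the data, called 0 members. Of all genes, 59 of 2934 were called without replicate 1, 131 of 2911 without replicate 2, 0 without replicate 3 and 0 with quantile normalization. KCNAB1 differed by 0.68 to 0.98 in these fits, with a limma adjusted p of 0.0959 to 0.204.

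**Figure D2:**
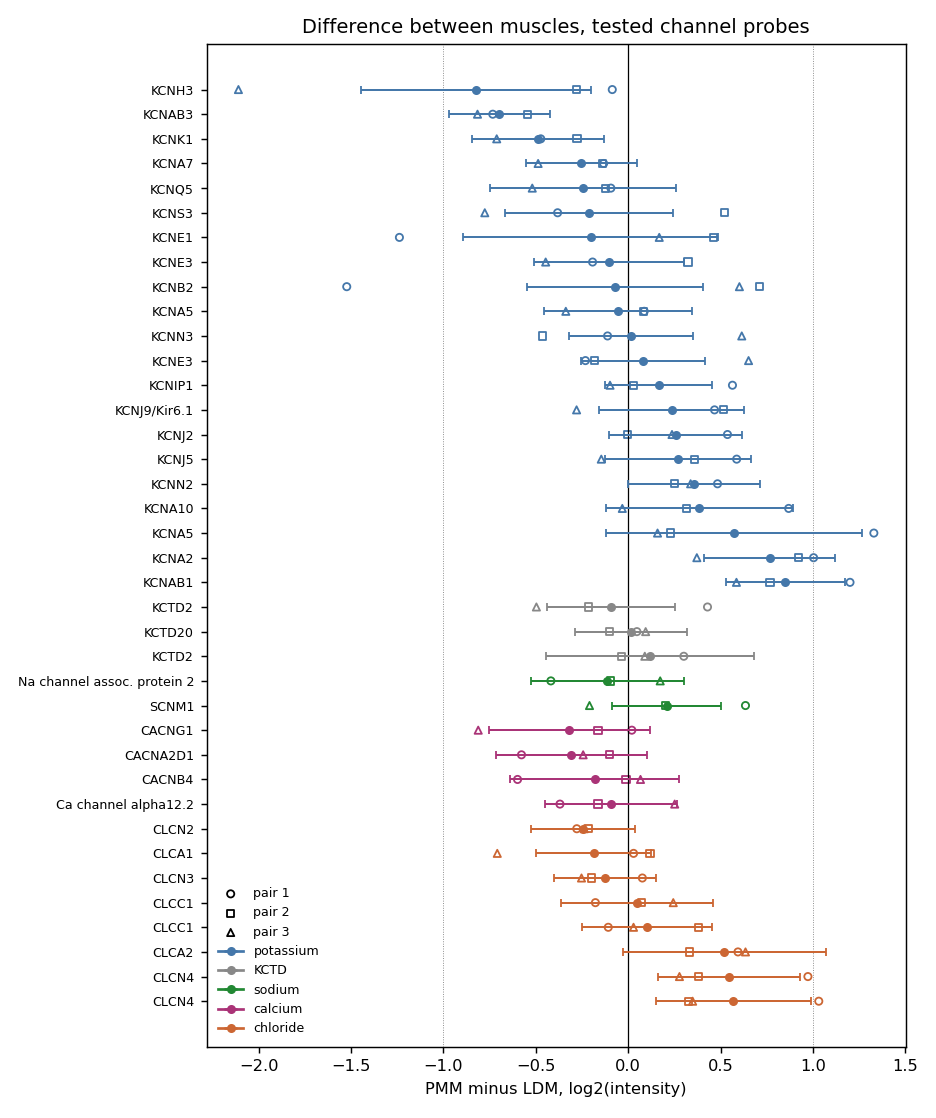
PMM minus LDM in log2 intensity for 38 tested channel probes, by ion class and ordered by size. Filled points with bars are the limma difference and its standard error, open symbols the differences of the 3 pairs of the same replicate number, and dotted lines mark −1 and 1. KCNAB1 and KCNA2 lie farthest to the right and KCNH3 and KCNAB3 farthest to the left.

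The potassium class held the widest differences, in both directions. KCNAB1 encodes a cytoplasmic beta subunit, related to aldo-keto reductases, that binds KCNA channels and speeds their inactivation. Its levels were −1.05, −0.32 and −0.62 on the LDM arrays of replicates 1, 2 and 3, and 0.14, 0.45 and −0.034 on the PMM arrays. All PMM values lay above all LDM values. The difference was 0.85 ± 0.32 (SE, n = 3 arrays each), or 1.80-fold, with pair differences of 1.20, 0.77 and 0.59. Without the block the limma unadjusted p was 0.0286 and the exact permutation p was 0.1, the smallest possible. This probe was spotted 5 times per array, and its repeat spots had an SD of 0.0480 to 0.105 log2 units within an array. Between the arrays of a muscle the SD was 0.37 in LDM and 0.25 in PMM.

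KCNAB3, a second beta subunit gene of the same family, lay the other way. Its levels were 2.98, 2.83 and 3.08 in LDM and 2.24, 2.28 and 2.27 in PMM, again without overlap. The difference was −0.70 ± 0.27, with pair differences of −0.73, −0.54 and −0.82, and LDM was 1.62-fold above PMM. The PMM values differed among themselves by an SD of 0.0209, the LDM values by 0.130. KCNA2, a pore-forming alpha subunit that binds these beta subunits, was measured at −3.88, −3.35 and −3.81 in LDM and −2.88, −2.43 and −3.43 in PMM. PMM was higher in each pair, by 1.003, 0.92 and 0.37, but PMM replicate 3 lay below LDM replicate 2. The difference of KCNA2 was 0.76 ± 0.36.

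The other KCNA alpha subunits gave smaller or uneven differences. KCNA5, an alpha subunit known from atrial and smooth muscle, had a first probe with a difference of 0.57 ± 0.69 and the second with −0.056 ± 0.40. The first was at 0.18, 0.45 and 2.48 in LDM and 1.51, 0.68 and 2.64 in PMM, so that its spread within each muscle exceeded the difference, which was 0.058 without PMM replicate 3 and 1.29 without LDM replicate 3. KCNA7, described from skeletal muscle and heart, was at 2.60, 2.21 and 2.67 in LDM and at 2.46, 2.07 and 2.19 in PMM. It was lower in PMM in all 3 pairs, by a mean of 0.25 (SE 0.30), with overlap. The second KCNA7 probe, shown above, was well above background on 2 LDM and 2 PMM arrays and was not tested. KCNA10 differed by 0.38 ± 0.51 (0.013 without PMM replicate 2 and 0.82 without PMM replicate 3), and KCNA1 was detected on 4 arrays and KCNA6 on 1.

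Among the other voltage-gated potassium channels, the Elk channel KCNH3 was lower in PMM in each pair. KCNH3 was at −2.69, −4.11 and −1.87 in LDM and −2.77, −4.39 and −3.98 in PMM. Its difference of −0.82 ± 0.62 rested on pair 3, at −2.11, beside −0.086 and −0.28 in the others, and ranged from −1.44 without LDM replicate 2 to −0.31 without LDM replicate 3. With normexp background correction, which moved the median of all probes from −0.029 to 0.19, the sign of KCNH3 turned, to 0.21. KCNQ5, of the family of the M-current, was lower in each pair too, at −0.25 ± 0.50. KCNB2 (−0.070 ± 0.47), the silent subunit KCNS3 (−0.21 ± 0.45) and the accessory subunits KCNE1 (−0.20 ± 0.69) and KCNE3 (0.079 ± 0.34 and −0.11 ± 0.41 for 2 probes) had pairs of both signs. KCNIP1, which encodes a calcium-binding subunit of A-type channels, differed by 0.16 ± 0.29.

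The remaining potassium members were inward rectifiers, tandem pore channels and channels opened by calcium. KCNK1, a tandem pore channel of the resting membrane, was at −4.01, −4.02 and −3.16 in LDM and −4.49, −4.30 and −3.87 in PMM. It was lower in PMM in each pair, with overlap, and differed by −0.49 ± 0.36, but by 0.74 with normexp. KCNJ2, an inward rectifier that sets the resting potential of muscle, was at −3.22, −2.79 and −3.67 in LDM and −2.68, −2.79 and −3.43 in PMM, a difference of 0.26 ± 0.36. KCNJ5 differed by 0.27 ± 0.39, and a probe named KCNJ9 but described as another inward rectifier, Kir6.1, by 0.23 ± 0.39. Of the small-conductance calcium-activated channels, KCNN2 was 0.36 ± 0.36 above LDM, higher in each pair, and KCNN3 differed by 0.014 ± 0.33. KCNMA1, the large-conductance calcium-activated channel, was well above background on 1 LDM and 2 PMM arrays and was not tested.

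**Figure D3:**
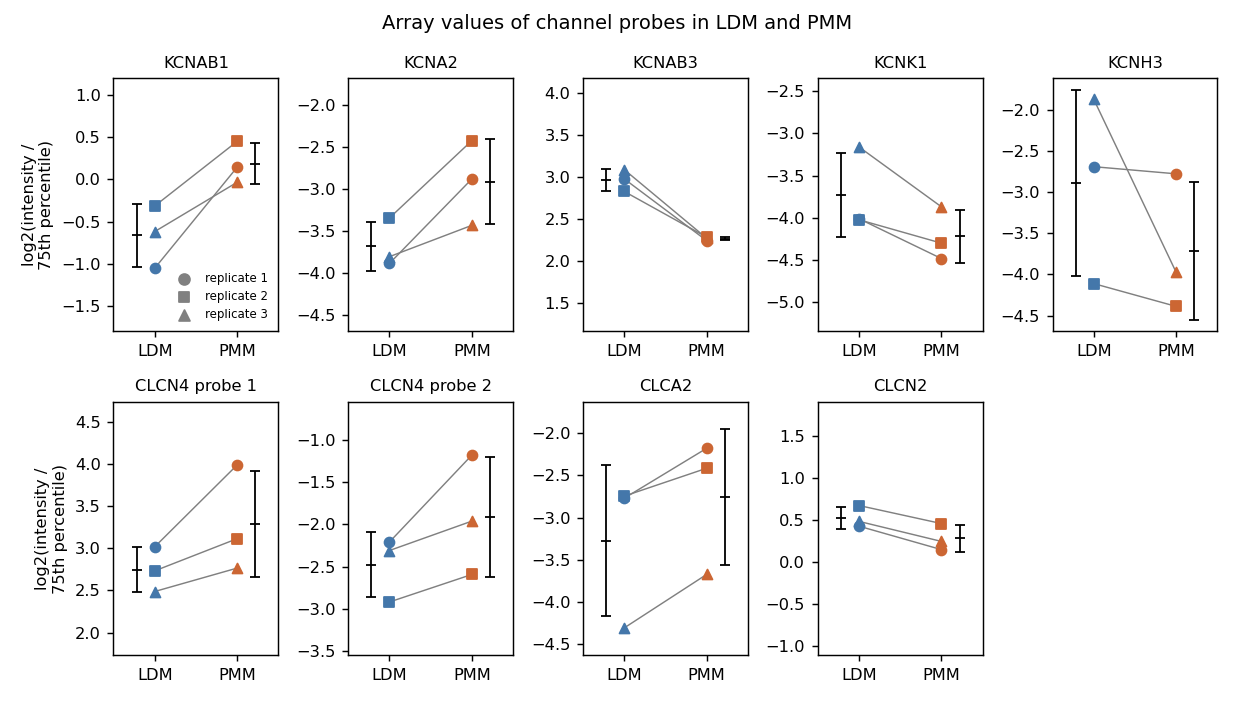
Levels of 9 channel probes, log2 of intensity over the 75th percentile of the array, on the 3 LDM and 3 PMM arrays. Grey lines join arrays of the same replicate number, and black bars give the mean and SD. The 9 were picked by hand, all with 3 pairs of the same sign, whereas 24 of the 39 tested members had pairs of both signs. KCNAB1 and KCNAB3 show no overlap between the muscles, as did 5.13% of tested members and 5.95% of all probes tested.

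Chloride channel genes had the highest share detected of the 4 ion classes, and CLCN4 was measured by a pair of probes that gave like differences. CLCN4 encodes an exchanger of chloride and protons in endosomes. Its first probe, shown above, was at 3.02, 2.73 and 2.49 in LDM and 3.99, 3.12 and 2.77 in PMM. The second was at −2.21, −2.92 and −2.31 in LDM and −1.18, −2.59 and −1.96 in PMM. Both were higher in PMM in each pair, with overlap, and differed by 0.54 ± 0.38 and 0.57 ± 0.42. The limma unadjusted p with the replicate block was 0.0418 and 0.0396, and the limma adjusted p over all probes 0.422 and 0.417. In that fit 7 of the 39 members and 2892 of the 25824 probes had an unadjusted p under 0.05. Without 1 array the differences ranged from 0.19 to 0.81 and from 0.20 to 0.91. Pair 1 held the largest difference in both probes, at 0.97 and 1.03, beside 0.28 to 0.38 in the other pairs. The arrays of pair 1 were on different slides, and those of pairs 2 and 3 each shared a slide. The part of slide in the pair 1 differences was not tested.

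CLCA2, of a family that regulates calcium-activated chloride currents, was at −2.77, −2.75 and −4.31 in LDM and −2.18, −2.41 and −3.67 in PMM. It was higher in PMM in each pair by 0.59, 0.33 and 0.63, but levels differed more between the replicate numbers than between the muscles (0.52 ± 0.55). The difference was 0.0025 without LDM replicate 3 and 0.98 without PMM replicate 3. CLCN2, a chloride channel of the plasma membrane, was at 0.43, 0.67 and 0.48 in LDM and 0.15, 0.46 and 0.25 in PMM. It was lower in PMM in each pair, by 0.28, 0.21 and 0.24, and its difference of −0.24 ± 0.28 did not pass. CLCN3, an endosomal exchanger, differed by −0.13 ± 0.27 and CLCA1 by −0.19 ± 0.31, and both turned to 0.71 and 0.70 with normexp. The difference was small for CLCC1, of the endoplasmic reticulum, at 0.046 ± 0.41 and 0.10 ± 0.35 for 2 probes. The median of the 8 tested chloride probes was 0.073, with 5 above 0.

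The calcium channel members tested were accessory subunits and 1 entry named only as an alpha12.2 subunit, and all 4 had a PMM mean below that of LDM, though with normexp CACNB4 (0.37) and the alpha12.2 subunit (0.088) lay above it. CACNG1, the gamma subunit of the skeletal muscle calcium channel, was at 6.31, 5.45 and 6.80 in LDM and 6.33, 5.29 and 5.99 in PMM. Pair 1 was near 0 at 0.020 and pair 3 at −0.81, for a difference of −0.32 ± 0.44. CACNA2D1, the alpha2delta subunit of the same channel, was at 5.34, 4.54 and 4.10 in LDM and 4.76, 4.44 and 3.86 in PMM. It was lower in PMM in each pair, with overlap, by a mean of 0.31 (SE 0.41). CACNB4 differed by −0.18 ± 0.46 and the alpha12.2 subunit by −0.094 ± 0.36, with pairs of both signs. The class median was −0.24 over 4 probes, and 0.18 without PMM replicate 1. CACNG6, a further gamma subunit, was well above background on 2 arrays of each muscle, and its levels ranged from −6.88 to −3.92.

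The sodium class had 2 tested probes, neither for a pore. SCNM1, named sodium channel modifier and known as a splicing protein, was at 4.27, 4.48 and 4.74 in LDM and 4.90, 4.69 and 4.53 in PMM, a difference of 0.21 ± 0.30. The entry named sodium channel associated protein 2 differed by −0.11 ± 0.41. SCN10A, a sodium channel of sensory neurons, was well above background on LDM replicate 2 alone and was not tested. The KCTD probes were detected throughout and differed by −0.094 ± 0.35 and 0.12 ± 0.56 (KCTD2) and by 0.014 ± 0.30 (KCTD20), with pairs of both signs.

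A list of 34 channel genes known from skeletal muscle was read out as a whole. It had a member probe for 14 genes, of which 12 genes (14 probes) were tested, 5 probes above 0 and 9 below. The median of these probes was −0.12, against −0.029 over all probes, and none passed over all probes. With the replicate number as a block and 1 probe per gene, KCNAB1 was the list's call, where 6.33% of all genes were called. Its limma adjusted p was 0.071 with slide as a random block over all probes, and 0.148 to 0.204 in the gene fits without 1 replicate number.

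The differences of undetected probes varied by pair. The 15 members detected on no array had a median pair difference of 0.70 in pair 1, 0.34 in pair 2 and −0.19 in pair 3. For the 10277 probes of the whole array detected on none, the medians were 1.29, 0.30 and −0.20. The 11 members detected on 1 to 5 arrays had medians of 0.52, 0.26 and −0.028, against −0.30, 0.050 and 0.20 for such probes of the whole array. The 38 members detected on all 6 arrays had medians of 0.024, 0.013 and −0.065. KCNV1, a silent subunit, and the second KCNIP1 probe were well above background on PMM replicate 1 alone, at −3.91 and −4.48. On the other 5 arrays they lay between −8.33 and −6.77, so that no fold was given for them.

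**Figure D4:**
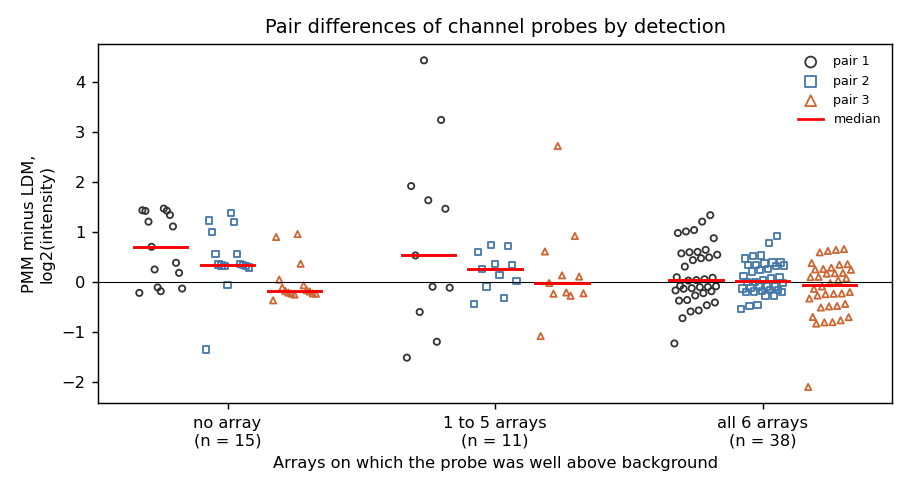
PMM minus LDM in log2 intensity for all 64 channel probes in each of the 3 pairs, split by the number of arrays on which the probe was well above background. Red lines are medians. Probes on no array lie above 0 in pairs 1 and 2 in the median and below it in pair 3, while probes on all 6 arrays have medians near 0.

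Pumps and calcium handling genes that work with the channels were read from lists of 45 genes. Of these, 15 were matched to a probe by gene symbol and were tested. Without the block 0 passed, over all probes and with 1 probe per gene. With the block over all probes 0 passed, with an adjusted p of 0.180 for PLN and 0.176 for ATP1B4. In the fit of 1 probe per gene with the block, in which 6.33% of all genes were called, 2 passed, both higher in PMM. PLN encodes phospholamban, which restrains the calcium pump of slow and cardiac muscle. It was at 4.92, 5.90 and 4.71 in LDM and 7.10, 6.96 and 6.40 in PMM, without overlap. Its difference was 1.64 ± 0.40, with a limma adjusted p of 0.00102 with the block. ATP1B4, of the family of the sodium pump's beta subunits, was at −1.14, −0.98 and −1.67 in LDM and 0.27, 0.030 and −0.59 in PMM, again without overlap. It differed by 1.17 ± 0.35 (limma adjusted p = 0.00295 with the block).

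Among those that did not pass, ATP1B1, a beta subunit of the sodium pump, differed by 0.43 ± 0.34 and was higher in PMM in all 3 pairs. Of the calcium genes, ATP2A2, the pump of slow fibres, differed by 0.40 ± 0.39, CASQ1, the calcium store protein of fast fibres, by −0.29 ± 0.58, and RYR1, the release channel, by −0.26 ± 0.64. SLN, which also restrains calcium pumps, differed by 0.12 ± 0.33. ANK3, an anchor of membrane channels, was the measured regulator, at 0.30 ± 0.28. None of the 7 endplate genes was matched to a probe by gene symbol.

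**Figure D5:**
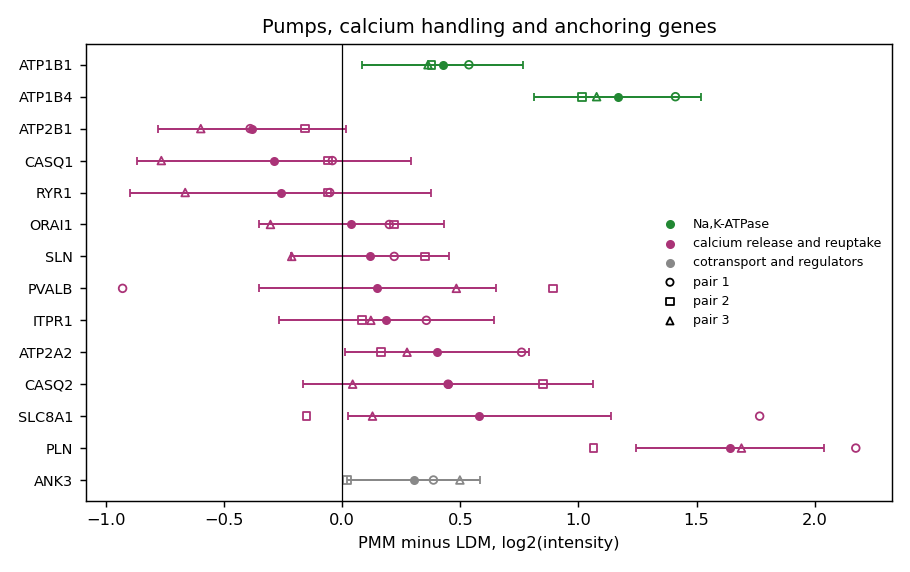
PMM minus LDM in log2 intensity for 14 sodium pump, calcium handling and anchoring genes. Filled points with bars are the limma difference and its standard error, and open symbols the 3 pair differences. PLN and ATP1B4 lie farthest to the right, with all 3 pairs above 0.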

How the data were processed

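RNA of 3 LDM and 3 PMM samples was hybridized with Cy3 to an Agilent pig array. The authors deposited spot intensity values from Agilent Feature Extraction 10.5.1.1, background-subtracted and detrended but not normalized between arrays, with flags for outlier spots and for signal well above background. The value table held the same intensities within 0.005 units. The probe map of the authors, the genome build and their test were not used here.

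Control and outlier spots were left out, repeat spots averaged, and each array was scaled to its 75th percentile before taking log2. Probes well above background on all 3 arrays of either muscle, with at least 2 values in each, were tested with limma 3.58.1 (R 4.3.3, lmFit and eBayes, two-sided, Benjamini-Hochberg over all probes, threshold 0.05). The procedure was run on simulated arrays without pairing, with differences larger than that of any member. That run therefore does not bear on differences of the size seen here. Of the members, 26 were named by RefSeq accession and 3 by gene number through a table of Sscrofa11.1, 12 by the file and 23 from the description or an older name. Over the whole array 5153 probes had a gene symbol and 38450 had none. A listed gene that was not matched may therefore still have a probe.

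The test as reported, with its standard errors and intervals, used no block. The replicate numbers were taken to pair the arrays only in the block fits and the pair differences. That choice rested on deviations from the muscle means, which correlated at 0.648, 0.738 and 0.611 between arrays of the same number. These deviations sum to 0 within a muscle, so different numbers tend below 0 (−0.574 to −0.00913). Scan day coincided with the number, and replicates 2 and 3 each shared a slide between the muscles. As no label ties arrays to animals, p-values measure the spread between these samples, which may be technical. The members and lists were chosen with earlier results of these data known. Named were the members of the muscle list, up to 4 probes per class and direction with the largest difference, every called member, and any member detected throughout 1 muscle and nowhere in the other. A further few members were described after their values were seen. Alternatives covered scaling, background, filter, slide, block and each array left out. The number of arrays limits precision. A few results are not reported here, in the text or in the figures, though they are in the counts.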

Additional observations from a re-analysis of the deposited data

How the results depend on the processing

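No channel probe was called under any scaling, filter or slide setting, with the replicate block over all probes (0), or without any 1 array (0 to 0). The exceptions were 1 probe per gene with the replicate block (2 calls) and the same with members named by description (3 calls, a choice made after seeing the data). Of the pump and calcium handling genes 0 were called, 0 to 0 without 1 array, against 2 with slide as a random block and 2 with 1 probe per gene and the replicate block. Among the marker genes, the block with 1 probe per gene called MB, higher in PMM, and CIDEC, PLIN1, COL1A1 and COL1A2, lower in PMM. That fit called 6.33% of all its genes. With the block over all probes none of these markers was called (limma adjusted p 0.226 to 0.306). The counts of members detected on all arrays of a muscle kept within 1.5 times, at 48 (LDM) and 47 (PMM) by the weaker positive and significant flag, but those on no array fell from 15 to 3. All probes called numbered 0 in the test as reported, 7 with quantile normalization, 9 with median centring, 3 with normexp and 327 with slide as a random block. Some of the shifts below come with a change in the probes fitted, and the cause of the others was not tested.

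Class medians depended on the setting. With normexp they were 0.58 for potassium, 0.33 for sodium and 0.62 for chloride. Without the filter on detection they were 0.23 for potassium and 0.24 for chloride. With 1 probe per gene by symbol, with or without the block, only 15 potassium, 1 sodium and 4 chloride probes were left. Their medians were 0.16, 0.21 and −0.16, the sodium value being SCNM1 alone. CLCA2 and both CLCN4 probes, all above 0 in the test as reported, were not in these fits. The sodium median was −0.021 with median centring and the chloride median 0.16 with slide as a random block. Without 1 array the medians ranged from 0.0071 to 0.11 (potassium), −0.37 to 0.14 (KCTD), −0.095 to 0.19 (sodium), −0.36 to 0.18 (calcium) and −0.080 to 0.36 (chloride).

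Among single probes, normexp turned the sign of 14 of the 39 members, 12 of them from below to above 0. Of those named here, it gave 0.56 and −0.19 for the probes of KCTD2, 0.37 for CACNB4, 0.088 for the alpha12.2 subunit, 0.70 for CLCA1, 0.71 for CLCN3, 0.60 for KCNE1, 0.57 for a KCNE3 probe, 0.89 for KCNB2, 0.21 for KCNH3, 0.74 for KCNK1, −0.093 for SCNM1 and 0.75 for sodium channel associated protein 2. KCTD20 turned to −0.0028 and KCNN3 to −0.038 with quantile normalization, and to −0.055 and −0.056 with median centring. With slide as a random block the alpha12.2 subunit turned to 0.015, KCNE1 to 0.21 and sodium channel associated protein 2 to 0.0069.

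Leaving out 1 array turned the sign of 18 of the 39 members and moved 35 by over 1.5 times, all but CLCN2, KCNA2, KCNAB1 and KCNAB3. The ranges were −0.37 to 0.090 and −0.41 to 0.56 for the KCTD2 probes, −0.13 to 0.14 for KCTD20, −0.59 to 0.032 for CACNA2D1, −0.50 to 0.28 for CACNB4, −0.34 to 0.18 for the alpha12.2 subunit, −0.23 to 0.40 and −0.091 to 0.33 for the CLCC1 probes and −0.29 to 0.31 for the second KCNA5 probe. They were −0.94 to 0.21 for KCNE1, −0.43 to 0.40 for KCNB2, −0.71 to 0.043 for KCNS3, −0.025 to 0.56 for KCNJ5, −0.21 to 0.23 and −0.50 to 0.13 for KCNE3 probes, −0.22 to 0.18 for KCNN3, −0.69 to 0.14 for KCNQ5 and −0.41 to 0.21 for sodium channel associated protein 2. KCNAB1 (0.66 to 1.02), KCNA2 (0.52 to 1.02) and KCNAB3 (−0.77 to −0.64) kept their sign. For the 15 members not well above background on any array, signal over background sets the limit.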
